A study of Homo sapiens with 2 samples.

Results

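The genes described here are 45 genes of G2 phase and mitosis, taken by symbol from the 33538 genes counted in each library. All 45 were present in both libraries, and none was left out. The study asked what the transcription factor GATA3 does when human embryonic stem cells (hESCs) meet bone morphogenetic protein 4 (BMP4), a differentiation signal. Single-cell RNA-seq was carried out on 2 libraries, 1 per group. The WT library held unmodified cells of the established hESC line H1. The GATA3 KO library held KO-GATA3-06, a single clone with GATA3 targeted in H1 cells that carry Cas9 under doxycycline control. Effects of the genotype, of the clone and of the cassette therefore cannot be told apart. Both had been grown in mTeSR1 on Matrigel and exposed to 50 ng/ml BMP4 for 48 h. A protocol text of the WT library gives 1 h instead, against its title and recorded duration.

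Cells that have copied their DNA build up cyclin B and its partner kinase CDK1, whose activation starts mitosis. Polo-like and Aurora kinases then assemble the spindle, kinetochores tie chromosomes to it, and the anaphase-promoting complex (APC/C) with CDC20 destroys cyclins so that cells can divide. Transcripts of these genes rise together late in the cycle and are low in G1, and they are abundant in hESCs, which cycle fast with a short G1.

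A known feature of these genes is a proximal promoter with CCAAT boxes, read by the factor NF-Y, and a cell cycle genes homology region (CHR), read by DREAM and MuvB complexes. Promoter windows of 300 bases, from 250 before to 50 after the transcription start (RefSeq, GRCh38.p14), were given for 39 of the 45 genes, in 48 windows, and not for AURKA, BUB3, UBE2C, BIRC5, TTK and HMGB2. A CHR (TTTGAA or TTCGAA, either strand) was in 34 of the 48 windows (70.8%), against 16.4% of all 35116 windows in the table. A CCAAT (either strand) was in 35 of the 48 (72.9%), against 34.6% of all windows, and both motifs were in 29 (60.4%), against 6.38%. For 2 other motifs, TATAAA was in 2 of the 48 (4.17%) against 11.5% of all windows, and the forkhead core TGTTTAC was in 1 (2.08%) against 3.42%. A CHR lay between 70 bases before and 30 after the start in 54.2% of the 48 windows and 5.13% of all windows, a range chosen after the positions had been seen. These are matches of letters, which do not show that a factor binds there.

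The 170 bases before the start are shown for the genes that the comparisons below turn on, 5 that differed between the libraries in either direction and 1 cyclin that did not. The windows of CCNB1 and CCNA2, cyclins that also did not differ, held CCAAT but no CHR and are not shown. Capitals mark CHR and CCAAT matches on either strand, so ATTGG is CCAAT on the other strand. In MKI67 the last CHR and ATTGG overlap.
PLK1 (polo-like kinase; chr16:23678719-23678888, + strand): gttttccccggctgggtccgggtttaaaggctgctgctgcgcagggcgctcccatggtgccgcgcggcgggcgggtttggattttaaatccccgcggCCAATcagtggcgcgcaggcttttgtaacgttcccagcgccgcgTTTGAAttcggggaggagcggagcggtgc
CDC20 (APC/C activator; chr1:43358811-43358980, + strand): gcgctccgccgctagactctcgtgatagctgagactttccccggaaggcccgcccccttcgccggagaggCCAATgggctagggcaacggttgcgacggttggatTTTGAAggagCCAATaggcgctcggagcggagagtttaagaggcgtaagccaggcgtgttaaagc
MKI67 (chromosome surface protein; chr10:128126424-128126593, - strand): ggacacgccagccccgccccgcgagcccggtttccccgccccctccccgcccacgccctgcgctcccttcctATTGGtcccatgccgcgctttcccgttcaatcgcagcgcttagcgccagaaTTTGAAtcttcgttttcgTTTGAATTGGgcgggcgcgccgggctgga
CDK1 (mitotic kinase; chr10:60778161-60778330, + strand, the first of 2 starts in the table): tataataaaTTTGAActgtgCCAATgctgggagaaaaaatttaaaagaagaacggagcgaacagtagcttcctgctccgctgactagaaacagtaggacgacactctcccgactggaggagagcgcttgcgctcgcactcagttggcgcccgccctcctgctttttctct
CENPA (centromeric histone; chr2:26785886-26786055, + strand): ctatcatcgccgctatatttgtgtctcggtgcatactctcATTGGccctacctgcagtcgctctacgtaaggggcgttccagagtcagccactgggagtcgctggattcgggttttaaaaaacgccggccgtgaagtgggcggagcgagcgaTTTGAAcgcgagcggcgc
CCNB2 (cyclin B2; chr15:59104976-59105145, + strand): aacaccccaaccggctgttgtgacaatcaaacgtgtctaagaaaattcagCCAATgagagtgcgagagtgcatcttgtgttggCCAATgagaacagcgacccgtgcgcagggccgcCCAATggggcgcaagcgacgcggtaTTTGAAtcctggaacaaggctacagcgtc
CCNB2 showed 3 CCAAT boxes upstream of 1 CHR, PLK1, CDK1 and CENPA showed 1 of each, CDC20 showed 2 CCAAT boxes and 1 CHR, and MKI67 showed 2 of each. In CDK1 the CHR shown lay at -161 from its start. The second CDK1 start, not shown, had CHR matches at -69, -13 and 9 and CCAAT at -78 and -46. The genes that were higher and those that were lower in the GATA3 KO library thus both included promoters with this pair of motifs.

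Counts are unique molecular identifiers (UMIs) tagged at the 3′ end of transcripts, so a count does not grow with transcript length, and levels are given per 1000000 UMIs of the cells summed (CPM) without division by length. The limits on cells were those of the study's methods. Removing cells with more than 7500 detected genes or more than 25% mitochondrial UMIs kept 2519 of 3802 WT and 4450 of 6221 GATA3 KO cells. Kept cells had a median of 44415 and 43132 UMIs. All intervals are 95% and cover counting error only, since there was 1 library per group, and no test between groups could be made. In sums of this kind, fewer cells of a type and less RNA per cell cannot be told apart. All 10 markers of pluripotent stem cells were at 5 CPM or more in both libraries (75.6 to 940.2 CPM in WT and 55.7 to 1480.1 CPM in GATA3 KO). Markers of neurons reached at most 1.83 CPM, those of blood at most 0.351 CPM, and COL3A1, DCN and LUM of fibroblasts at most 0.0803 CPM, although COL1A1 (15.2 and 29.4 CPM) and COL1A2 (66.0 and 53.0 CPM) were detected. The summed markers of the primitive streak differed between the libraries (253 CPM in WT and 12.3 in GATA3 KO), those of endoderm were at 18.7 and 0.320 CPM, and those of amnion and trophectoderm at 63.5 and 85.5 CPM. GATA3 itself was at 12.7 CPM in WT and 10.9 CPM in GATA3 KO, which does not check the label, since tags at the 3′ end are still made from a gene with a damaged reading frame, so each direction below rests on the labels. The libraries shared 8 cell barcodes among all deposited cells. No doublets were removed.

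The genes together made up nearly the same part of the RNA in both libraries. Their summed level in kept cells was 4019 CPM (4007 to 4031) in WT and 4359 CPM (4349.7 to 4369) in GATA3 KO, a 1.08-fold difference (log2 0.12, 0.11 to 0.12). Over all deposited cells the levels were 4391 and 4499 CPM and the log2 ratio fell to 0.03. The cells that were removed differed in level from those that were kept. Cells over the limit of 7500 genes had 4830.3 CPM in WT and 4822 CPM in GATA3 KO, above the kept cells and alike in both libraries. They were 26.6% of WT cells with 53.8% of all UMIs of the 45 genes, and 20.3% of GATA3 KO cells with 39.1%. These shares were close to the same cells' part of the UMIs of all genes, 48.9% in WT and 36.5% in GATA3 KO.

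Cells rich in these transcripts were removed more often by the gene limit. Each cell was thinned at random to 10000 UMIs, which left out cells of fewer UMIs, and cells were split at 50 UMIs of the 45 genes (0.5%), a value chosen after the data had been seen and not a call of cell cycle phase. Among cells within the mitochondrial limit, 502 of 1012 WT cells at or above 50 exceeded 7500 genes (49.6%, 46.5 to 52.7), against 510 of 2173 cells below it (23.5%, 21.7 to 25.3). In GATA3 KO these shares were 564 of 1794 (31.4%, 29.3 to 33.6) and 701 of 3509 (20.0%, 18.7 to 21.3). The limit thus took a larger part of the cells at or above 50 in WT than in GATA3 KO, and their median depths were 66774 and 56809 UMIs.

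Among kept cells the distribution had a long upper tail in both libraries. The median share of the 45 genes was 0.340% of a cell's UMIs in WT (5th to 95th percentile 0.180% to 0.740%, 2173 cells) and 0.370% in GATA3 KO (0.190% to 0.780%, 4038 cells), and without thinning the medians were 0.348% and 0.372%. Of the WT cells, 510 (23.5%, 21.7 to 25.3) held 50 or more of these UMIs, and of the GATA3 KO cells 1230 (30.5%, 29.0 to 31.9). Near that value, 149 WT and 262 GATA3 KO cells held 45 to 49, and 119 and 253 held 50 to 54.

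**Figure D1:**
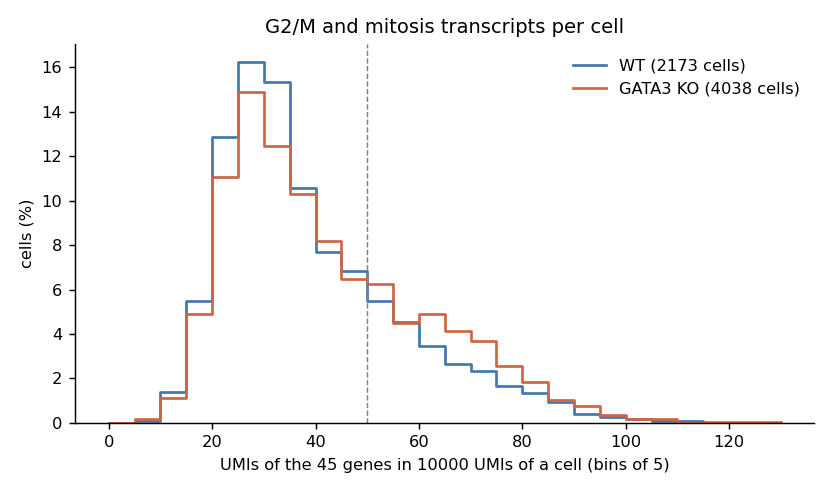
Share of kept cells (%, y axis) by the number of UMIs of the 45 genes in 10000 UMIs of the cell (x axis, bins of 5; the last bin also holds higher values), for WT (2173 cells) and GATA3 KO (4038 cells). Both curves peak between 20 and 35 UMIs and run on past 100, and 23.5% of WT and 30.5% of GATA3 KO cells lie at or beyond the dashed line at 50.

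The difference between the libraries was not spread evenly over cells of different depth. In the 4 bands from 10000 to 50000 UMIs per cell the log2 ratios were 0.01, -0.01, -0.06 and 0.20. Between 50000 and 60000 UMIs the levels were 3974 CPM in WT (547 cells) and 5186 CPM in GATA3 KO (1006 cells), a log2 ratio of 0.38 (0.37 to 0.39), and at 60000 or more they were 5059.9 and 4974 CPM (-0.02). Below 10000 UMIs the ratio was 0.24 (0.19 to 0.29). In both libraries the level was lowest at a middle depth, 3365 CPM at 40000 to 50000 UMIs in WT and 3451 CPM at 30000 to 40000 UMIs in GATA3 KO.

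**Figure D2:**
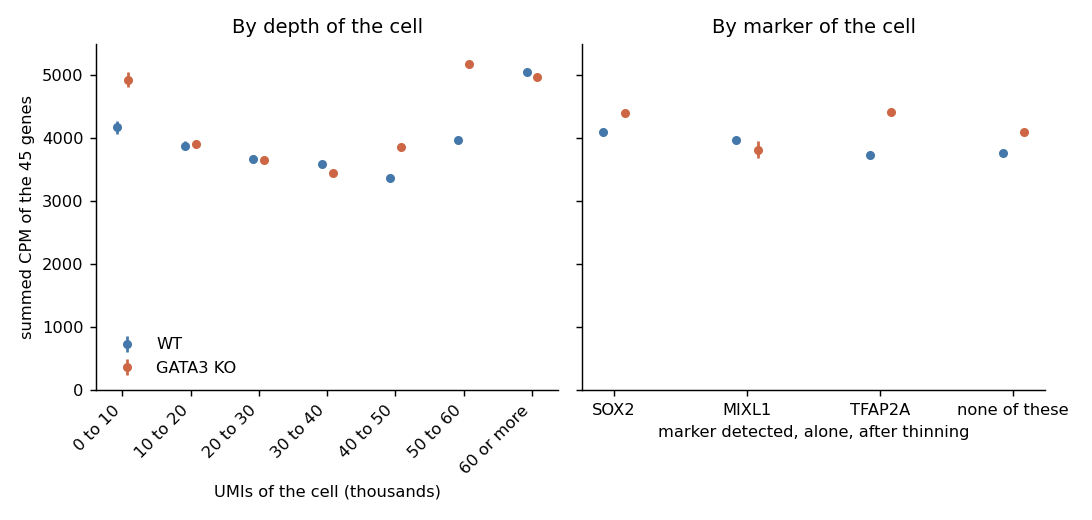
Summed CPM of the 45 genes (y axis, from 0) in kept cells by UMIs of the cell (left) and, in cells of at least 10000 UMIs, by the marker detected alone after thinning (right), for WT and GATA3 KO. Bars are 95% counting intervals, most of them smaller than the points. The libraries part most at 50000 to 60000 UMIs (3974 against 5186 CPM) and, among marker groups, in TFAP2A cells (3744 against 4416 CPM).

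Single genes moved in both directions. Genes are described as higher or lower, or past the threshold, where the log2 ratio of CPM + 1 was at least 0.32 in size, and unless said otherwise the ratio is GATA3 KO over WT and the levels are in the order WT, GATA3 KO. This held for 16 of the 45 genes upward, while 30.5% of all 9992 genes of at least 5 CPM were higher, and for 4 of 45 downward, while 18.4% of all genes were lower. The number that were higher was thus close to that background. The median log2 ratio was 0.15 over the 45 genes and 0.08 over all genes, and the range was -0.74 to 0.99. Over all deposited cells 14 of the 45 genes were higher and 7 were lower, the latter joined by CENPE, NUF2 and KIF20B, beside 27.6% and 19.8% of all genes. Of the 20 genes past the threshold, 14 stayed past it in the same direction under every scaling, choice of cells, pseudocount and GC correction tried (11 higher and 3 lower): CDC25B, PLK1, CDC20, CDCA8, CENPF, NDC80, KIF20A, KIF2C, CKAP2L, MKI67 and PIF1 were higher, and CDK1, CENPA and HMGB2 were lower. The share of all genes that stayed past it in every setting was not counted, so these 14 have no background.

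**Figure D3:**
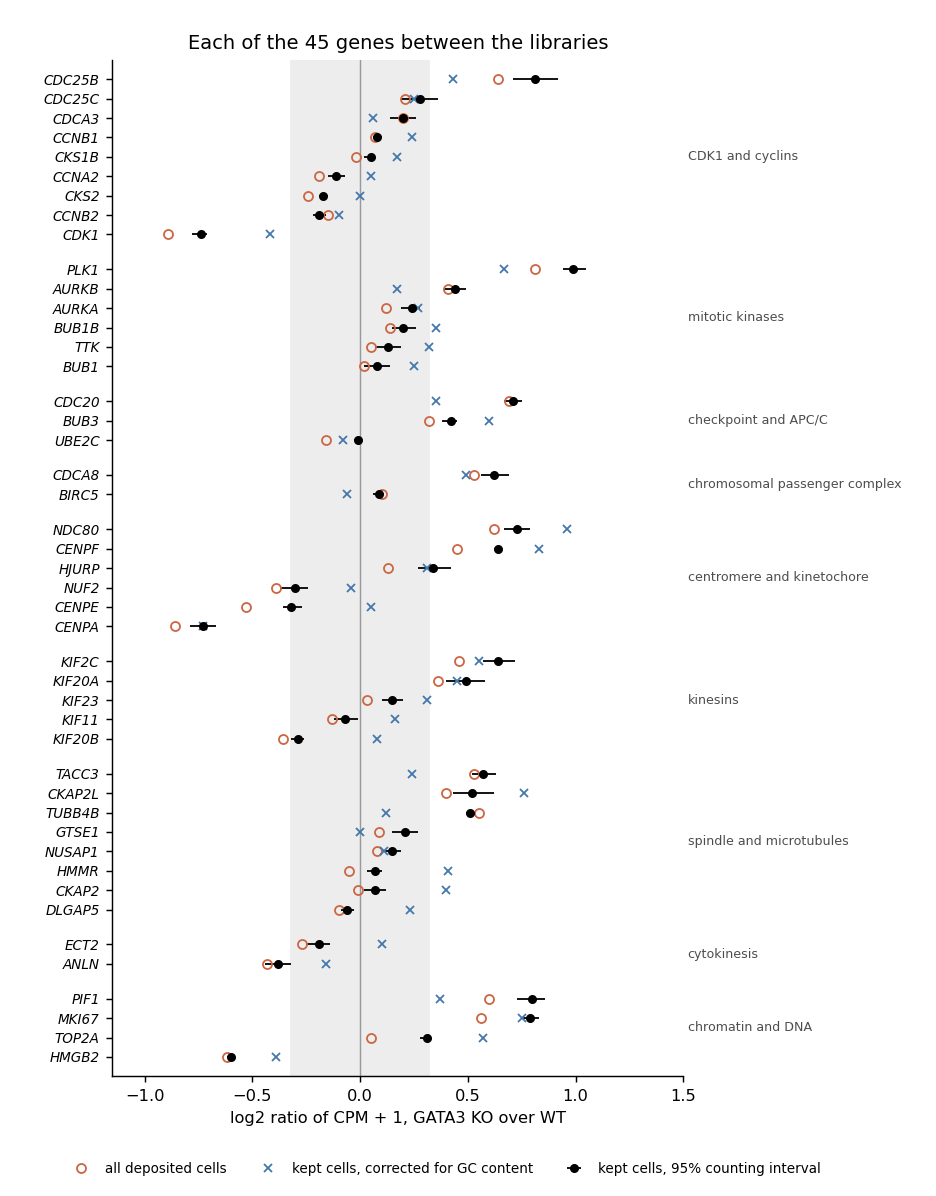
Log2 ratio of CPM + 1, GATA3 KO over WT (x axis), for each of the 45 genes by role (rows). Black points are kept cells with 95% counting intervals, open circles are all deposited cells, crosses are kept cells after correction for GC content, and the grey band marks log2 ratios within 0.32 of 0. PLK1 is highest at 0.99 and CDK1 lowest at -0.74, while CCNB1, UBE2C and BIRC5 lie within the band.

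By role, the summed level differed most for the mitotic kinases, at 242.8 CPM in WT and 319.0 CPM in GATA3 KO (log2 0.39), and for the centromere and kinetochore genes, at 410.3 and 524.4 CPM (0.35). The spindle genes were at 673.8 and 818.1 CPM (0.28). The genes of CDK1 and its cyclins (1146 and 1080.2 CPM, -0.09), of kinesins (334.7 and 312.9 CPM, -0.10), of cytokinesis (140.2 and 136.5 CPM, -0.04) and of chromatin and DNA (603.4 and 599.5 CPM, -0.01) were near equal in sum, and each of these sums held genes that were higher and genes with a ratio below 0.

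Among CDK1, the cyclins and their partners, CDK1 stood apart from its cyclins. CDK1 was at 120.3 CPM in WT and 71.5 CPM in GATA3 KO, a log2 ratio of -0.74 (-0.78 to -0.71). Its cyclins stayed within the threshold, with CCNB1 at 207 and 219 CPM (0.08), CCNB2 at 130.3 and 114 CPM (-0.19) and CCNA2 at 83.8 and 77.6 CPM (-0.11). CDK1 was thus lower while cyclin B1, with which it pairs, was not. The small CDK-binding subunits CKS1B (282 and 292 CPM, 0.05) and CKS2 (272 and 242 CPM, -0.17) were also within the threshold, although CKS1B has near-identical copies whose reads counting can split. Of the phosphatases that activate CDK1, CDC25B was higher (7.85 and 14.5 CPM, 0.81, 0.71 to 0.92) and CDC25C was at 14.2 and 17.4 CPM (0.28). CDCA3, which helps degrade the CDK1 inhibitor WEE1, was at 28.9 and 33.4 CPM (0.20).

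PLK1 led the mitotic kinases. PLK1, needed for entry into mitosis and for the spindle, was at 37.6 CPM in WT and 75.8 CPM in GATA3 KO, a log2 ratio of 0.99 (0.94 to 1.05). AURKB, the kinase that corrects wrong attachments of chromosomes, was at 45 and 61.5 CPM (0.44), while AURKA, the kinase of spindle poles, was at 58.1 and 68.7 CPM (0.24) and did not pass the threshold. The checkpoint kinases TTK (31.0 and 34.0 CPM, 0.13), BUB1 (33.2 and 35.2 CPM, 0.08) and BUB1B (37.8 and 43.6 CPM, 0.20) lay within the threshold. BUB1B overlaps BUB1B-PAK6 and PAK6 on the same strand, so its count is uncertain.

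The checkpoint and APC/C genes differed within the group. CDC20, the mitotic activator of the APC/C, was at 71.1 and 117 CPM (0.71, 0.67 to 0.75), and BUB3, the checkpoint protein that recruits BUB1 to kinetochores, was at 94.2 and 126 CPM (0.42). UBE2C, the ubiquitin-conjugating enzyme of the APC/C, was alike in both, at 258 and 256 CPM (-0.01, -0.03 to 0.01). In the chromosomal passenger complex, which holds AURKB at centromeres, CDCA8 was higher (23.1 and 36.2 CPM, 0.62) and BIRC5 was not (148 and 158 CPM, 0.09).

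Genes of the centromere and kinetochore fell on both sides. CENPA, the histone variant that marks centromeres, was at 40.3 and 24.0 CPM (-0.73, -0.79 to -0.67), whereas HJURP, its chaperone, was at 18.2 and 23.4 CPM (0.34). CENPA overlaps SLC35F6 on the same strand, so part of its count is uncertain. CENPF, a large outer kinetochore protein, was at 225 and 350.3 CPM (0.64, 0.62 to 0.66). NDC80, which binds microtubules, was at 28.2 and 47.6 CPM (0.73), while its partner NUF2 in the same complex was at 30.0 and 24.1 CPM (-0.30) and did not pass the threshold. CENPE, the kinesin of kinetochores, lay just short of it, at 68.8 and 55.1 CPM (-0.32), and was past it over all deposited cells (-0.53).

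Of the other kinesins, KIF2C, which takes microtubules apart (17.7 and 28.1 CPM, 0.64), and KIF20A, a kinesin of the midzone (13.7 and 19.6 CPM, 0.49), were higher. KIF11, which pushes spindle poles apart, was at 41.5 and 39.5 CPM (-0.07), KIF23 at 44.3 and 49.2 CPM (0.15) and KIF20B at 149 and 121 CPM (-0.29). Among spindle and microtubule genes TACC3, which stabilises spindle fibres (34.2 and 51.5 CPM, 0.57), CKAP2L (9.73 and 14.4 CPM, 0.52) and the β-tubulin TUBB4B (249 and 354 CPM, 0.51) were higher, the last with near-identical copies. NUSAP1, HMMR, DLGAP5, GTSE1 and CKAP2 ranged from -0.06 to 0.21. In cytokinesis, ANLN, which links actin to the cleavage furrow, was lower (35.8 and 27.3 CPM, -0.38) and ECT2, which activates RhoA there, was at 46.4 and 40.4 CPM (-0.19).

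Among genes of chromatin and DNA, MKI67, the proliferation marker Ki-67, was at 60.6 and 106 CPM (0.79, 0.75 to 0.83) and PIF1, a DNA helicase, at 22.9 and 40.4 CPM (0.80). HMGB2, which bends DNA and was the most abundant of the 45 genes in WT, was at 328 and 216 CPM (-0.60, -0.62 to -0.58), although its near-identical copies make it uncertain. TOP2A, which untangles sister chromatids, was at 192 and 238 CPM (0.31), and at a log2 ratio of 0.05 over all deposited cells.

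GC content moved with these ratios. Across the 45 genes the GC content of the longest annotated transcript and the log2 ratio had a Pearson r of 0.61 and a Spearman rho of 0.62, and across all 9973 tested genes with a GC value these were 0.45 and 0.54, a description across genes that share both libraries. All genes were divided by GC content at 42.8% and 52.5% into a low, a middle and a high class of equal size. In these classes the median log2 ratio was -0.17, 0.08 and 0.42, and that of the 22, 15 and 8 genes of the 45 in them was 0.00, 0.20 and 0.64. Of the 8 in the high class 7 were higher and none was lower, in a class where the median of all genes (0.42) was itself past the threshold. For a correction, the median ratio of genes of like GC content was subtracted from each ratio. The median of all genes (0.08) was added back, so the threshold was not the distance from those genes. After it 16 of the 45 were higher and 3 lower, against 23.7% and 15.0% of all genes, and 8 changed sign. CDC20 (0.35) and PIF1 (0.37) stayed only just past the threshold. NDC80 (0.96), CENPF (0.83), CKAP2L (0.76), MKI67 (0.75) and PLK1 (0.67) were then among the highest of the 45 and CENPA (-0.73), CDK1 (-0.42) and HMGB2 (-0.39) among the lowest. AURKB (0.17), HJURP (0.31), TUBB4B (0.12), TACC3 (0.24) and ANLN (-0.16) came within the threshold. BUB1B (0.35), HMMR (0.41), CKAP2 (0.40) and TOP2A (0.57) were past it only after the correction, so the genes counted as higher were not all the same. The part of GC content in the differences was not tested beyond this.

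**Figure D4:**
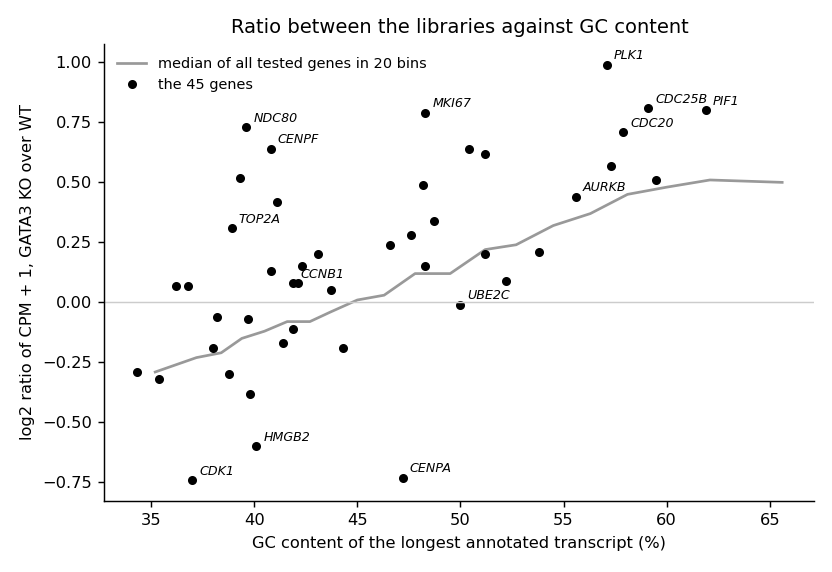
Log2 ratio of CPM + 1, GATA3 KO over WT (y axis), against the GC content of the longest annotated transcript (%, x axis) for the 45 genes, with the median of all tested genes in 20 bins of GC content as a line. The line rises with GC content, and more of the 45 genes lie above it than below. CENPA, CDK1 and HMGB2 are among those below it, and NDC80, CENPF, MKI67 and PLK1 among those above.

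The genes also differed in how closely they followed one another from cell to cell. For each gene, thinned cells were ranked by the UMIs of the other 44 genes and cut into 4 classes, and the top class was compared with the bottom class (543 cells each in WT and 1009 each in GATA3 KO). The ratio was 2-fold or more for 35 of the 45 genes in WT and 33 in GATA3 KO, while among other genes 1.07% and 0.479% reached it when cells were ranked by all 45. PLK1 had the highest ratio in both libraries, at 11.6 and 76.2 CPM in the bottom and top class of WT (log2 2.62) and 21.0 and 148 CPM in GATA3 KO (2.76). AURKA (2.31 and 2.74), UBE2C (2.31 and 2.42), TOP2A (2.36 and 2.23), CENPE (2.16 and 2.17), KIF23 (1.91 and 2.14) and CENPA (2.24 and 1.90) came next by the lower of the 2 ratios. CKS1B (0.46 and 0.56), TUBB4B (0.50 and 0.76), CCNB2 (0.56 and 0.84), BIRC5 (0.59 and 0.60), HMGB2 (0.62 and 0.65) and CCNA2 (0.78 and 0.68) were the loosest tied, together with KIF20B (0.75 and 0.58). Cyclin B1 was tied more closely than cyclin B2, with CCNB1 at 1.19 and 1.53. The closest pair was UBE2C and TOP2A (Pearson r of log counts 0.55 over 2173 WT cells and 0.56 over 4038 GATA3 KO cells), and all cells of a library share its preparation.

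**Figure D5:**
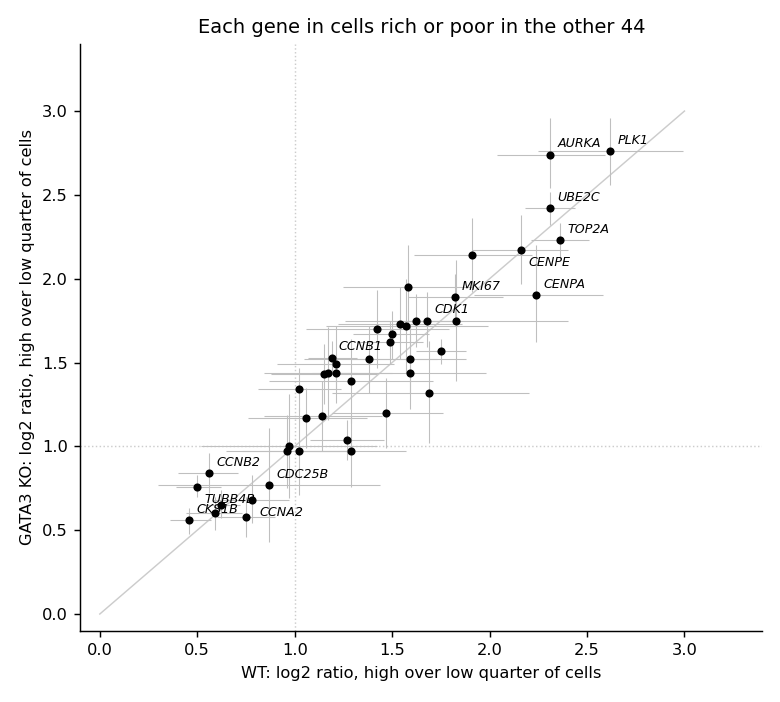
Log2 ratio of CPM + 1 in the cells with the most over the cells with the fewest UMIs of the other 44 genes, in WT (x axis) and GATA3 KO (y axis), for each of the 45 genes, with 95% counting intervals. Dotted lines mark 2-fold and the diagonal marks equal ratios. PLK1 is at the top in both libraries (2.62 and 2.76), and CKS1B (0.46 and 0.56) is at the bottom.

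The libraries were also compared within these classes, which were cut in each library on its own and so did not hold equal numbers of these UMIs (median 61.0 of 10000 in the top class of WT and 67.0 in that of GATA3 KO, by all 45 genes). In the top class CDK1 was at 219 CPM in WT and 126 CPM in GATA3 KO (-0.79, -0.91 to -0.68) and CENPA at 76.1 and 42.8 CPM (-0.81, -1.01 to -0.62). In the same cells PLK1 was at 76.2 and 148 CPM (0.95, 0.79 to 1.11), CDC20 at 95.6 and 174 CPM (0.86, 0.72 to 1.00) and MKI67 at 113 and 185 CPM (0.71, 0.58 to 0.85). UBE2C was at 511 and 498 CPM (-0.04) and TOP2A at 391 and 433 CPM (0.15). Of the 20 genes past the threshold in all kept cells, 18 were past it in the same direction in the top class and 18 in the bottom class. These classes are parts of the same kept cells, and the share of all genes that stayed past it was not counted.

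Genes outside the list that followed it most closely were mostly mitotic. By the lower of the 2 libraries' Pearson r with the summed list, over 4559 genes of at least 20 CPM in both, the 10 most alike were TPX2 (0.44 in WT and 0.53 in GATA3 KO), KPNA2 (0.43 and 0.55), UBE2S, SGO2, DEPDC1, CALM2, MALAT1, FAM83D, G2E3 and ASPM. Of these 8 were in a list of other mitotic genes. The 50 most alike in each library shared 38 genes (76.0% of each list). The most opposed were the histone gene HIST1H4C (-0.29 and -0.24) and genes of DNA replication and its onset, among them UNG, PCNA, MCM5, CCNE1 and CDC6. Over 20 S phase genes the summed level fell from 2051 CPM in the bottom to 1364 CPM in the top class of WT cells by the 45 genes, and from 2476 to 1628 CPM in GATA3 KO, while 40 other mitotic genes rose from 2076 to 3636 CPM and from 2033 to 4093 CPM. The cells of the top class were also deeper, with a median of 54609 against 44888 UMIs in WT and 52268 against 40565 in GATA3 KO.

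Cells were next grouped by SOX2, a factor of pluripotent cells, MIXL1, a factor of the primitive streak, and TFAP2A, a factor of amnion and trophoblast, each detected alone after thinning. SOX2 cells were 43.3% of WT cells (940) and 76.3% of GATA3 KO cells (3079), MIXL1 cells were 19.7% (427) and 0.396% (16), and TFAP2A cells were 5.84% (127) and 7.75% (313). A count of 0 of a marker after thinning does not show that a cell lacks it. The 45 genes were near the same level in all groups of WT, at 4106 CPM in SOX2 cells (4087 to 4126), 3974 in MIXL1 cells (3946 to 4001) and 3744 in TFAP2A cells (3694 to 3795). In GATA3 KO they were at 4399.9 CPM in SOX2 cells (4389 to 4411) and 4416 in TFAP2A cells (4382 to 4451), and at 3818 (3681 to 3959) in the 16 MIXL1 cells, too few to describe single genes.

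Within WT, the MIXL1 and SOX2 cells differed little. The log2 ratio of the sum was -0.05 (-0.06 to -0.04), 3 of the 45 genes were higher in MIXL1 cells, with 9.79% of all genes higher, and 3 were lower, with 15.0% of all genes lower. ANLN (30.0 CPM in SOX2 and 42.6 CPM in MIXL1 cells), CENPE (55.1 and 82.1 CPM) and TUBB4B (228 and 286 CPM) were higher, and CENPF (261 and 188 CPM), MKI67 (67.9 and 53.9 CPM) and PIF1 (27.3 and 16.5 CPM) were lower. TFAP2A cells of WT had a log2 ratio of the sum of -0.13 (-0.15 to -0.11) against SOX2 cells, which became 0.00 with thinning to 20000 UMIs and -0.26 without the gene limit. Of the 45 genes 3 were higher there, ANLN, CENPA and CENPE, with 14.3% of all genes higher. The 11 that were lower, with 29.8% of all genes lower, included CENPF (261 and 156 CPM), BUB1 (34.8 and 18.7 CPM), TOP2A (215 and 152 CPM) and MKI67 (67.9 and 48.0 CPM). In GATA3 KO the same comparison gave 0.01 (-0.01 to 0.02) for the sum, with 7 genes higher (17.4% of all genes), among them CDK1 (68.1 and 100.2 CPM) and HMGB2 (208 and 289 CPM), and 6 lower (24.8% of all genes), among them BUB1 (37.8 and 22.8 CPM) and TOP2A (253 and 188 CPM). BUB1, TOP2A, KIF11 and PIF1 were lower in TFAP2A than in SOX2 cells of both libraries. CENPF was lower there in WT, and was at 365 and 305 CPM in SOX2 and TFAP2A cells of GATA3 KO. Whether the contrast differed between the libraries was not tested.

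Between the libraries, 16 genes were higher in GATA3 KO in both SOX2 and TFAP2A cells, CDK1 and CENPA were lower in both, and none of the 45 was past the threshold in opposite directions. The share of all genes past it in both groups was not counted, so this overlap has no background to set it against. The sign of the ratio was opposite for 5 genes (CCNA2, NUF2, KIF11, KIF20B and DLGAP5), with KIF20B at -0.36 within SOX2 cells and 0.03 within TFAP2A cells. Within SOX2 cells 16 of the 45 genes were higher in GATA3 KO, with 27.5% of all genes higher, and 4 were lower, with 19.3% of all genes lower. Within TFAP2A cells 20 were higher, with 34.1% of all genes higher, and 2, CDK1 and CENPA, were lower, with 19.4% of all genes lower. PLK1 was at 38.0 and 76.4 CPM within SOX2 cells and at 40.5 and 80.1 CPM within TFAP2A cells. CDK1 was at 118 and 68.1 CPM within SOX2 cells and at 129.8 and 100.2 CPM within TFAP2A cells. MKI67 (67.9 and 109, then 48.0 and 98.2 CPM) and CENPF (261 and 365, then 156 and 305 CPM) were also higher in both. The log2 ratio of the sum was 0.10 within SOX2 cells and 0.24 (0.22 to 0.26) within TFAP2A cells. Without the gene limit it was -0.01 within SOX2 cells, 4615 CPM in WT and 4586 in GATA3 KO, and 0.20 within TFAP2A cells.

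Other lists of the cycle, each chosen by function, were compared between the libraries in kept cells, where 30.5% of all genes were higher and 18.4% lower. After GC correction 23.7% of all genes were higher and 15.0% lower. Of 15 genes that regulate transcription of G2/M genes, activators such as FOXM1 and MYBL2 as well as members of the repressing DREAM complex such as E2F4 and RBL2, 13 were of at least 5 CPM. Of those FOXM1 (35.2 and 52.2 CPM), MYBL2 (92.9 and 122 CPM) and E2F4 (22.4 and 33.0 CPM) were higher in GATA3 KO, and LIN9 (11.7 and 6.88 CPM), RBL2 (7.85 and 5.80 CPM), NFYA (6.41 and 4.65 CPM) and NFYB (82.5 and 60.7 CPM) were lower. After GC correction only LIN9 and NFYA of these 7 stayed past the threshold, and LIN52 (0.41) was past it only then. Of 40 other mitotic genes 10 were higher, among them the spindle assembly factor TPX2 (86.1 and 157 CPM), the kinesin KIF22 (34.7 and 71.1 CPM) and the importin KPNA2 (262 and 423 CPM), and 7 were lower, among them the CDK phosphatase CDKN3 (158 and 86.8 CPM). After GC correction 7 of the 10 and 2 of the 7 stayed past the threshold, among them the 4 named here. With genes past it only then, 13 were higher and 3 lower. TPX2 lies on chromosome 20, as do CDC25B, AURKA and UBE2C. The median log2 ratio of all tested genes there was 0.22, as on chromosome 11. It was higher on chromosomes 16 (0.29), 17 (0.25), 19 (0.33) and 22 (0.32). These are medians of whole chromosomes without GC correction, and a part of gene position in the ratios was not tested. Of 12 condensin and cohesin genes NCAPH (16.8 and 27.4 CPM), SMC1A (75.4 and 120.1 CPM) and RAD21 (126 and 174 CPM) were higher and none was lower. After GC correction 7 of the 12 were higher and none was lower, beside 23.7% and 15.0% of all genes. Of 20 S phase genes MCM3 (154 and 224 CPM), MCM5 (77.1 and 115 CPM), MCM7 (127 and 169 CPM) and CDC6 (46.2 and 62.0 CPM) were higher and none was lower, and the sum of the 20 was at 1791 and 2089.7 CPM (0.22), but MCM5 and MCM7 came within the threshold after GC correction. With genes past it only then, 5 were higher and 1, UHRF1 (-0.38), was lower. Of 8 G1 cyclins and kinases CCND1 (168 and 231 CPM), CCND3 (8.92 and 14.2 CPM) and CDK4 (115 and 182 CPM) were higher, and CCND2 (175 and 121 CPM) and CCNE2 (5.93 and 3.42 CPM) were lower. All of these stayed past the threshold after GC correction, joined by CDK6 (0.54) and CCNE1 (-0.39), for 4 higher and 3 lower. Of 17 brakes of the cycle 13 were of at least 5 CPM. Of those 5 were higher, among them CDKN1C (18.3 and 23.7 CPM) and PKMYT1 (10.6 and 20.8 CPM), the inhibitory kinase of CDK1. Another 5 were lower, among them CDKN1B (18.6 and 13.0 CPM) and GADD45B (39.1 and 16.5 CPM). After GC correction CDKN1C (-0.07) of the higher genes came within the threshold, as did FBXO5 (0.02) and RB1 (-0.18) of the lower. CDKN1A (-0.65) was lower only then, which left 4 higher and 4 lower.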

How the data were processed

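Samples were grouped by their labels, 1 library per group. Per the labels and the file headers, the authors made 10x 3′ v3 libraries and used Cell Ranger 3.0.2 with GRCh38. The deposited values are raw UMI counts per gene and cell barcode, 99587274 and 175285931 UMIs in the kept cells of WT and GATA3 KO. The 45 genes and all lists were chosen with earlier results of these data known. All 45 genes were named, other lists by genes past the threshold or of the highest level, and similar genes by the lower of the 2 correlations.

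Counts were summed over kept cells and divided by the total (CPM, pseudocount 1). Genes that reached 5 CPM in either group were compared, with exact Poisson and binomial intervals and Clopper-Pearson intervals for shares. No doublet caller was run. Cells were thinned to 10000 UMIs (seed 1). Positions, overlaps and GC content came from GENCODE 44, and TMM factors from edgeR 4.0.16 in R 4.3.3. Other steps used Python 3.11.15 with numpy 2.4.6 and scipy 1.17.1, and were tested on simulated counts. GC correction subtracted the median ratio of genes in 20 GC bins, interpolated between bins, and added back the median of all genes. It was chosen after seeing the data. Alternatives covered cells, scaling, pseudocount, minimum level, fold, thinning and marker rule.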

Additional observations from a re-analysis of the deposited data

How the results depend on the processing

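The log2 ratio of the sum, GATA3 KO over WT, was 0.03 over all deposited cells, 0.04 without the gene limit, 0.10 as a mean of cells and with TMM, 0.09 without the member of most UMIs, 0.15 without HMGB2, CKS1B and TUBB4B and 0.14 without the 5% of cells with most UMIs. Within SOX2 cells it turned from 0.10 to -0.01 without the gene limit, and was 0.08 as a mean of cells or with other markers allowed, 0.07 with 2 UMIs, 0.12 with thinning to 20000 and 0.13 with none. Within TFAP2A cells it was 0.12 with other markers allowed, 0.31 with 2 UMIs, 0.14 with thinning to 20000, 0.19 with none and 0.20 without the gene limit. TFAP2A over SOX2 cells of WT gave -0.16 as a mean of cells, -0.09 with other markers allowed, -0.19 with 2 UMIs, 0.00 with thinning to 20000, -0.06 with none and -0.26 without the gene limit. In GATA3 KO it gave -0.05 with other markers allowed or without the gene limit and 0.04 with 2 UMIs, and MIXL1 over SOX2 cells of WT gave -0.02 with other markers allowed.

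Members higher in GATA3 KO numbered 9 at 1.5-fold (14.3% of all genes), and members lower 7 over all deposited cells or without the gene limit (19.8% and 19.9% of all genes). At 1.5-fold within SOX2 cells 8 were higher and 2 lower (11.9% and 7.29% of all genes), and within TFAP2A cells 12 and 1 (17.6% and 8.46%). Without the gene limit 8 were lower within SOX2 cells (20.9%), and with other markers allowed 4 within TFAP2A cells (18.3%). For MIXL1 over SOX2 cells of WT 0 were higher and 1 lower at 1.5-fold (4.73% and 6.23%). For TFAP2A over SOX2 cells of WT 0 were higher and 2 lower at 1.5-fold (7.72% and 12.7%), 1 and 5 with other markers allowed (10.2% and 16.8%), and 1 was higher without the gene limit (15.5%). In GATA3 KO these were 2 and 2 at 1.5-fold (9.67% and 12.9%) and 2 and 3 with other markers allowed (10.8% and 13.9%). The median share was 0.360% at 5000 UMIs and 0.380% over all deposited cells or without the gene limit in WT, and 0.390% in the last 2 settings in GATA3 KO. The gene limit alone removed 53.8% and 39.1% of member UMIs, beside 48.9% and 36.5% of the UMIs of all genes. The mitochondrial limit alone removed 0.740% and 1.17%, beside 1.43% and 1.88%. In all 140 alternatives for the 20 members past the threshold the direction was the same, which was not counted over all genes. The cause of these shifts was not tested. With 1 library per group, nothing here measures spread between libraries, and members of low level, such as CDC25B and CKAP2L, rest on few UMIs per cell. No paired analysis was possible because each group has 1 library.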

Other observations

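Of the brakes of the cycle of at least 5 CPM, 6 of 12 were higher and 4 lower in TFAP2A than in SOX2 cells of WT, beside 14.3% and 29.8% of all genes. In GATA3 KO 6 of 13 were higher and 3 lower, beside 17.4% and 24.8%. CDKN1A, an inhibitor of cyclin-dependent kinases, was at 8.33 CPM in SOX2 and 19.2 CPM in TFAP2A cells of WT, and at 6.43 and 15.2 CPM in GATA3 KO. GADD45B, a stress-induced gene, was at 21.1 and 58.7 CPM in WT and 9.42 and 50.5 CPM in GATA3 KO. WEE1, PKMYT1, GADD45A and BTG2 were likewise past the threshold upward in TFAP2A cells of both libraries, and CDKN1B, CDKN1C and GADD45G were lower. Many of these were not particular to TFAP2A cells, since in MIXL1 cells of WT GADD45A, GADD45B and BTG2 were also higher and CDKN1B, CDKN1C and GADD45G lower than in SOX2 cells, with GADD45B at 55.8 CPM in these MIXL1 cells. The D-type cyclin CCND1 was at 187 and 100.3 CPM in WT and 245 and 105 CPM in GATA3 KO.

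CDKN1A also ran against the 45 genes from cell to cell. From the bottom to the top of 4 classes of cells by the UMIs of these genes it went from 15.8 to 2.39 CPM in WT and from 15.0 to 3.17 CPM in GATA3 KO, while POU5F1, a pluripotency factor, went from 941 to 930.0 CPM and from 1518 to 1466 CPM. TFAP2A cells were 7.90% of the bottom and 4.60% of the top class in WT, and 8.71% and 7.63% in GATA3 KO.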
